A study of Drosophila melanogaster with 18 samples.

Results

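Ovaries of *tud* mutant females were compared with ovaries of control females by RNA-seq, with 3 libraries in each group. These 6 libraries, chosen by their tissue and genotype labels, were part of a series of 18 that also holds female and male brains. All flies carried *y* and *w* and a second chromosome marked with *bw* and *sp* that bears *tud*1, a protein-null allele. In mutant flies this chromosome lay over the deficiency *Df(2R)Pu-rP133*. In control flies it lay over the balancer chromosome *CyO* with the insertion P[*w*+, *hs-hid*], a *hid* transgene under heat shock control whose marker is *w*+. The controls were thus heterozygotes for *tud*1, although the labels call them wild-type. The genotypes differed in the whole of the other second chromosome, and loss of Tud and any other difference between these second chromosomes therefore cannot be told apart. Flies were young and raised at 25 °C, and the ovaries were dissected by hand. The number of ovaries in a library is not given in the sources used here. RNA was depleted of ribosomal RNA and size-selected to remove 5S rRNA and tRNA, so that values of other short RNAs also depend on this step.

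Tud is a large scaffold protein made of Tudor domains, which bind PIWI family proteins through methylated arginines. In the female germline it is a component of the nuage, the granular material around nurse cell nuclei, and of the germ plasm, the posterior egg cytoplasm from which the embryo's germ cells form. Females without Tud lay eggs that do not form germ cells, and their daughters and sons are sterile. An ovary holds germline stem cells, cysts and growing egg chambers, each surrounded by somatic follicle cells that secrete the vitelline membrane and the chorion, and an outer muscle sheath.

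Values are FPKM, fragments scaled to the length of the transcript and the size of the library. The table lists 17288 genes, of which 13905 were above 0 in at least 1 ovary library. From the steps between low values, and if the libraries were not rescaled, the depth was estimated as 21500000 to 30000000 fragments in the controls and 23900000 to 26200000 in the mutants. Pairwise correlations of the 6 libraries across genes, which are not independent of each other, were 0.958 to 0.980. A gene at 0 is reported as listed at 0, because the mitochondrial genes were also at 0 in every library. The summed level of 11 germline markers was 2202 to 2321 FPKM in the controls and 2206 to 2468 FPKM in the mutants, and none of them was differentially expressed. The 11 gut markers together reached at most 0.6 FPKM and the 6 neuronal markers at most 1.16 FPKM. Of 13 testis markers, 7 were listed at 0 in all 6 libraries, among them the sperm tail genes *dj* and *djl*, and the sum was 6.59 to 8.13 FPKM in controls and 9.6 to 11.5 FPKM in mutants. This sum was mostly *bol*, and the other 12 markers together reached 0.397 to 0.73 FPKM in controls and 0.403 to 1.08 FPKM in mutants. Accessory gland markers summed to 7.84 to 11.8 FPKM in controls and 13.9 to 19.4 FPKM in mutants, with the sex peptide gene *SP* at 0. The part of these sums in the results was not tested.

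A pair of libraries stood apart. Control replicate 3 held more RNA of the stress-induced Turandot genes, with *TotA* at 43.2 FPKM against 3.78 to 8.59 FPKM in the other 5 libraries, and of the fat body lipoprotein gene *apolpp*, at 49.7 FPKM against 14.9 to 20.2 FPKM. Mutant replicate 1 held more of the antimicrobial peptide gene *Mtk*, at 13.9 FPKM against at most 0.99 FPKM elsewhere, and less follicle cell and muscle RNA. Its follicle cell markers summed to 1824 FPKM, against 2252 and 2374 FPKM in the other mutants and 2535 to 2791 FPKM in the controls. Most of that sum came from the eggshell gene *Cp36*, at 1085 FPKM, and the yolk gene *Yp1*, at 331 FPKM. The muscle sheath markers of mutant replicate 1 summed to 35.7 FPKM, against 51.8 to 57 FPKM in the other 5 libraries. In bulk tissue, fewer cells of a type and less RNA per cell cannot be told apart.

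Genes with a mean of at least 1 FPKM over the 6 libraries were tested with limma after transformation to log2(FPKM + 1), on which changes of low genes appear smaller than they are. A gene was called differentially expressed (DE) where its adjusted p, by the method of Benjamini and Hochberg, did not exceed 0.05. Of 8254 genes tested, 338 were DE (4.09%), of which 210 were upregulated (2.54%) and 128 downregulated (1.55%) in *tud* mutant ovaries. All 3 mutant libraries lay above all 3 controls for 1099 genes (13.3%) and below them for 937 genes (11.4%), and every DE gene was among these. Over all tested genes the log2 fold change had a median of 0.0023, and the residual standard deviation had a median of 0.108. Upregulated genes had a median log2 fold change of 0.74, and 67 of them reached at least 1. Downregulated genes had a median of −0.64, and 24 of them reached −1 or less. Genes of low level were more frequent among the rises than among the falls. A mean below 10 FPKM was found for 97 of the 210 upregulated genes (46.2%) and 30 of the 128 downregulated genes (23.4%). The share among all tested genes is not given here. The number of DE genes was lower whichever library was left out. It was 152 without control replicate 1, 155 without control replicate 2 and 221 without control replicate 3. It was 282, 271 and 153 without mutant replicates 1, 2 and 3, and 180 without control replicate 3 and mutant replicate 1. These fits hold fewer libraries, and the part of that in the counts was not tested. Whether the replicates came from separate crosses is not given, so that p-values measure the spread between these libraries only.

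**Figure D1:**
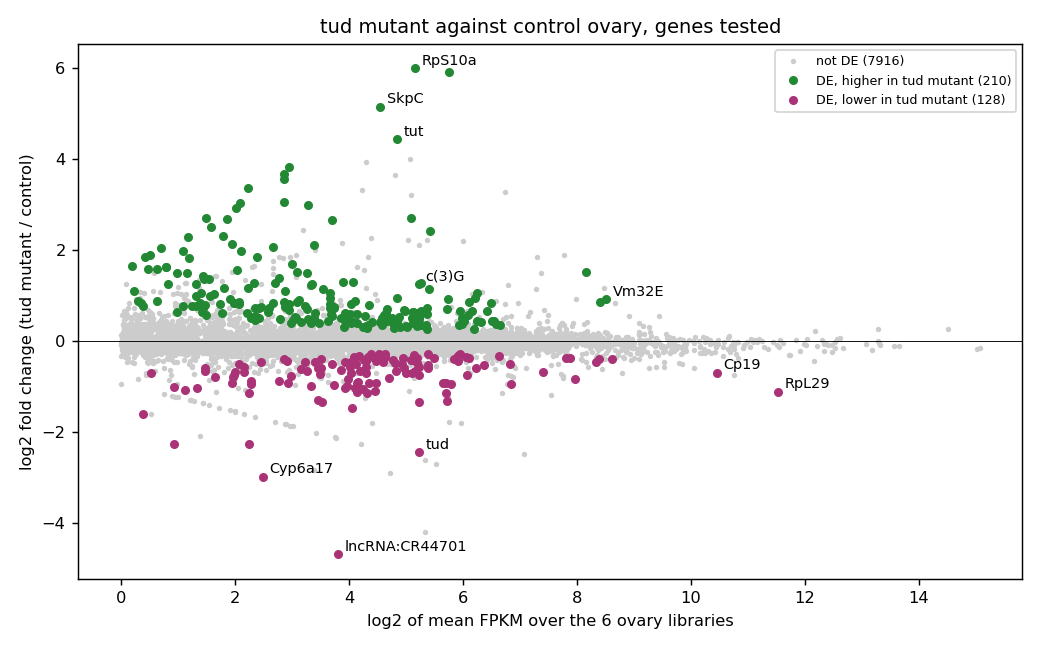
Each point is 1 of 8254 tested genes, with the log2 of the mean FPKM over the 6 ovary libraries on the horizontal axis. The vertical axis is the log2 fold change of *tud* mutant over control, and DE genes are coloured by direction. The largest rises, led by *RpS10a* at 6.00, start from low control levels, whereas *RpL29*, at −1.11, is the most abundant DE gene.

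The targeted gene was examined first. The level of *tud* (2R, 21183322 to 21192913) was 67.2, 61 and 63.2 FPKM in the control ovaries, and 9.1, 11.6 and 12.4 FPKM in the mutant ovaries. The groups were far apart, and mutants retained 17.3% of the control level, a log2 fold change of −2.44 ± 0.11 (SE, n = 3 a group, adjusted p = 0.000118). The eye colour gene *w*, an ABC transporter subunit, was listed at 0.257, 0.352 and 0.375 FPKM in controls and at 3.05, 3.24 and 3.06 FPKM in mutants. It rose by 1.63 ± 0.14 on the log2 scale (adjusted p = 0.00111) in the ovary, while the control carries the *w*+ transgene. In female brains the direction was the reverse, with 2.51, 2.35 and 3.43 FPKM in controls and 0.337, 0.205 and 0.205 FPKM in mutants. The cell death gene *hid*, which the control also carries as a transgene, was listed at 5.64, 5.56 and 5.37 FPKM in controls and at 3.29, 3.36 and 3.58 FPKM in mutants. Its log2 fold change was −0.57 (adjusted p = 0.0141), and the call was lost without control replicate 1, control replicate 2 or mutant replicate 3 (adjusted p of 0.0534 to 0.0757). RNA of the transgene and of the resident gene cannot be told apart. The difference of *bw* (log2 fold change 0.27, adjusted p = 0.365), whose mutant allele both genotypes carry, did not pass the test. *y* was under the filter and not tested, at 0.1, 0 and 0.0399 FPKM in controls and 0.129, 0.229 and 0.164 FPKM in mutants.

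Most of the largest rises were of genes at very low levels in control ovaries. Among the 15 largest, 11 were below 1 FPKM in all 3 controls. *RpS10a*, which encodes a small ribosomal subunit protein and has a paralogue, was listed at 0.115, 0.082 and 0.183 FPKM in controls and at 70.8, 75.7 and 66.9 FPKM in mutants. The mutant libraries agreed closely with each other, and the log2 fold change was 6.00 ± 0.079 (SE, adjusted p = 1.93e-07). *RpS10a* lies within *tau* on the opposite strand, and *tau* was under the filter. *SkpC*, a paralogue of the Skp1 subunit of SCF ubiquitin ligases, was listed at 0.323, 0.386 and 0.258 FPKM in controls and at 42.5, 49.5 and 46.3 FPKM in mutants (log2 fold change 5.15, adjusted p = 5.44e-07). Its widely expressed relative *SkpA* was at 508, 470 and 483 FPKM in controls and at 505, 507 and 506 FPKM in mutants, a difference of 0.055 that did not pass the test. Of 2 tested Skp1 family genes only *SkpC* was DE, against 4.09% of all tested genes. *SkpC* passed the filter only through its level in mutants, so that its place among the 2 follows from the rise. 

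*tut* encodes an RNA-binding protein that acts with Bam and Bgcn to end the divisions of male germ cells. It was listed at 1.04, 1.72 and 2.04 FPKM in control ovaries and at 71.6, 43.5 and 52.3 FPKM in mutant ovaries. Every mutant library was far above every control, and the log2 fold change was 4.44 ± 0.21 (SE, adjusted p = 0.000137). *Dhc98D*, a dynein heavy chain gene, was listed at 0.176, 0.121 and 0.11 FPKM in controls and at 8.26, 8.4 and 8.43 FPKM in mutants (log2 fold change 3.04, adjusted p = 3.18e-05). The gene next to it, *CG1894*, was listed at 0.188, 0.162 and 0.33 FPKM in controls and at 9.06, 5.46 and 6.4 FPKM in mutants (log2 fold change 2.68, adjusted p = 0.000667). These neighbours thus rose together. *ATPsynepsilonL*, related to the epsilon subunit of mitochondrial ATP synthase, was listed at 0.493, 0.891 and 0.787 FPKM in controls and at 18.3, 8.85 and 14.1 FPKM in mutants (log2 fold change 3.05, adjusted p = 0.000956).

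The remaining rises among the 15 largest were less well characterized genes and noncoding RNAs. *CG42854* was listed at 0.0517 to 0.0863 FPKM in controls and at 20.9, 7.9 and 17 FPKM in mutants (log2 fold change 3.83, adjusted p = 0.00108). The pseudogene *CR43086* was at 0.0611 to 0.4 FPKM in controls and at 13.7, 18.7 and 10.4 FPKM in mutants (log2 fold change 3.67). *hog* was at 0.0806 to 0.225 FPKM in controls and at 9.68, 5.75 and 8.38 FPKM in mutants (log2 fold change 2.92, adjusted p = 0.000537). In each of these genes the groups were widely separated, while the mutant libraries differed among themselves more than those of *RpS10a* did. *CG16995* (log2 fold change 2.99), *CG13029* (2.71) and *CG42329* (2.70) completed the coding genes. *CG13029*, the only one of them with a sizeable control level, was at 7.59, 6.66 and 10.2 FPKM in controls and at 76.6, 46.7 and 54.9 FPKM in mutants. *CG42854*, *hog* and *CG13029* lie within *f*, *NetB* and *Rh4*, none of which was tested, and whether the counting used strand is not given, so that reads of such overlapping genes may be shared. 

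Among noncoding RNAs, *lncRNA:CR44285* was listed at 0 in all 3 controls and at 9.12, 8.78 and 10.3 FPKM in mutants (adjusted p = 3.15e-05). *lncRNA:CR43132* was at 0, 0.146 and 0.325 FPKM in controls and at 24.6, 6.88 and 11.7 FPKM in mutants (log2 fold change 3.57, adjusted p = 0.00378). Its neighbour *CG15599*, named after its values were seen, was at 0.0189 to 0.0264 FPKM in controls and at 3.14, 2.86 and 3.71 FPKM in mutants (log2 fold change 2.05). Here again adjacent genes rose together. *snoRNA:Psi18S-525c*, a small nucleolar RNA that lies within *Arpc2*, was at 0, 4.67 and 0 FPKM in controls and at 107, 106 and 107 FPKM in mutants (log2 fold change 5.91 ± 0.64, adjusted p = 0.0035). The call was lost without control replicate 3 and mutant replicate 1 together (adjusted p = 0.0757). *Arpc2* itself, a subunit of the actin-nucleating Arp2/3 complex, did not change (log2 fold change 0.055). Of the 15 largest rises, 5 had an adjacent tested gene that was also upregulated, against 29 of the 203 upregulated genes with a position (14.3%), which include the 15. Of these 5, *Dhc98D* and *CG1894* are neighbours of each other. The neighbour of *lncRNA:CR44285*, *GstT1* (log2 fold change 0.36), lost its call in all 6 fits that left out 1 library. The 15 genes were spread over the genome, with 7 on the third chromosome, 4 on the second and 4 on the X.

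**Figure D2:**
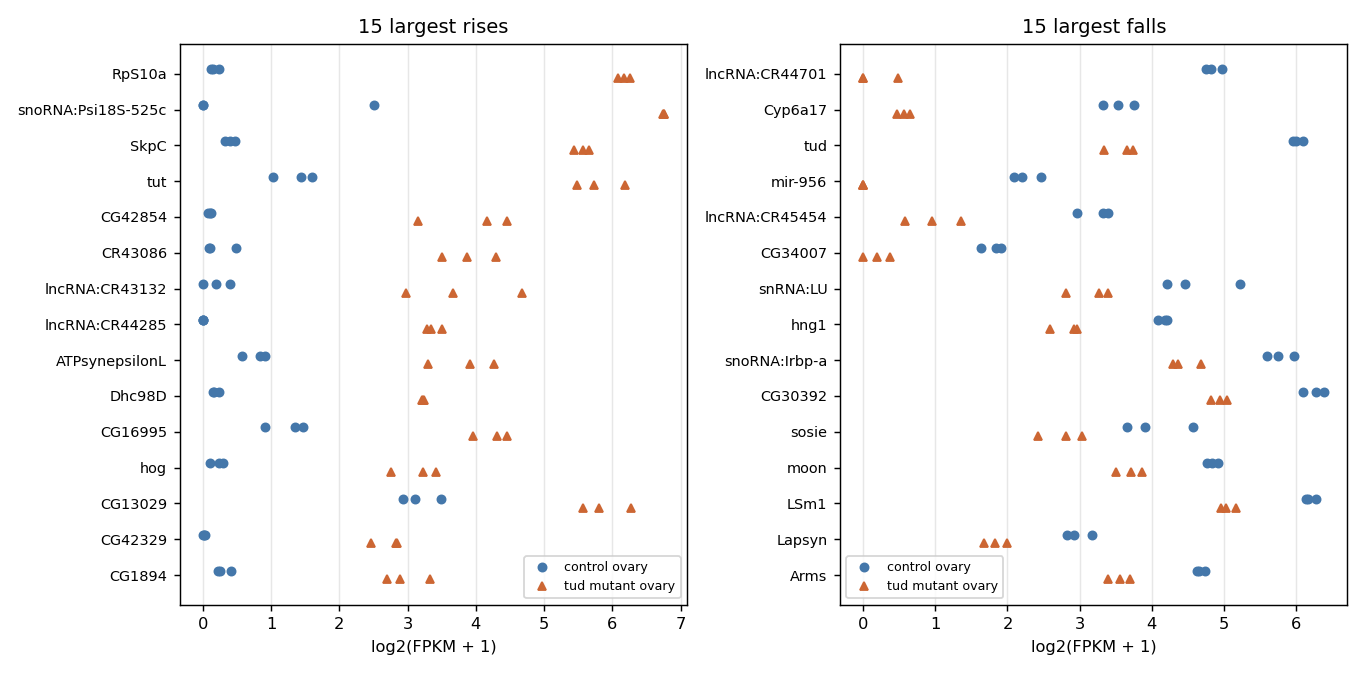
Points are log2(FPKM + 1) in each of the 3 control (circles) and 3 *tud* mutant (triangles) ovary libraries for the 15 largest rises and the 15 largest falls among DE genes. The groups do not overlap for any of the 30 genes, and 11 of the rises lie below 1 FPKM, that is below 1 on this axis, in every control.

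The counterpart, a gene present in controls and at a very low level in mutants, was rarer. While 12 genes were below 1 FPKM in all controls and at 5 FPKM or more in all mutants, 2 genes showed the reverse. *lncRNA:CR44701* was listed at 27.3, 30.5 and 26 FPKM in controls and at 0, 0 and 0.392 FPKM in mutants (log2 fold change −4.69, adjusted p = 2.45e-05). *Cyp6a17*, a cytochrome P450 known for its part in temperature preference, was at 9.03, 10.6 and 12.5 FPKM in controls and at 0.383, 0.562 and 0.476 FPKM in mutants (log2 fold change −2.98, adjusted p = 0.00012). Both groups were far apart for each of these genes. The adjacent *Cyp6a22* fell less, from 51.5, 50.7 and 49.8 FPKM to 36, 30.6 and 33.2 FPKM (log2 fold change −0.60, adjusted p = 0.00465). *mir-956* was listed at 4.54, 3.25 and 3.62 FPKM in controls and at 0 in all mutants (adjusted p = 0.000696), in libraries that were not made to capture microRNAs.

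Other falls among the 15 largest were *lncRNA:CR45454*, at 6.81, 8.97 and 9.55 FPKM in controls and 0.937, 0.497 and 1.56 FPKM in mutants (log2 fold change −2.26), *CG34007* (−1.60) and *snoRNA:Irbp-a* (−1.33). With all 18 libraries in the fit *snoRNA:Irbp-a* was not called (adjusted p = 1). *Irbp*, the host gene of this small nucleolar RNA, did not change (log2 fold change 0.0016). *lncRNA:CR45454* was no longer called without control replicate 3 and mutant replicate 1 (adjusted p = 0.0607). *snRNA:LU* (log2 fold change −1.47, adjusted p = 0.0327) lost its call in 5 of the 6 fits that left out 1 library, the exception being the fit without control replicate 2. *sosie* (log2 fold change −1.29, adjusted p = 0.0421) lost it in all 6, with adjusted p of 0.0608 to 0.156. Controls of *sosie* spread widely, at 14, 11.6 and 22.8 FPKM against 6.05, 7.19 and 4.34 FPKM in mutants. The other falls among the 15 were *moon*, described with the piRNA genes, and 6 genes at or beside *tud*.

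Genes around *tud* were examined because the mutants carry a deficiency there. From *Tmtc3*, 60 kb before the start of *tud*, to *CG33655*, 134 kb after it (2R, 21123735 to 21320017), 28 genes other than *tud* were tested, of which 25 were downregulated and none upregulated. Their median log2 fold change was −0.92, and the 25 called genes retained 36.2 to 59.6% of the control level. The edges of this run were set from the data, at the first place where 2 tested genes in a row were not lower in all mutants, so its counts are a description. Just outside it *Rbpn-5* (log2 fold change 0.081) and *Gar1* (0.19) on one side, and *CG30394* (0.15) and *dom* (−0.06) on the other, were not DE. Farther out, *snoRNA:Psi18S-1389b*, 150.8 kb after the start of *tud* (log2 fold change −0.94, adjusted p = 0.0358), and *Acox57D-p*, 203.0 kb after it (−0.47, adjusted p = 0.00471), were also downregulated. *Acox57D-p* is named after its values were seen. The call of *snoRNA:Psi18S-1389b* was lost in 5 of the 6 fits that left out 1 library. The run held 20.3% of all downregulated genes. Beyond 250 kb of *tud*, 1.31% of the tested genes on 2R were downregulated, close to the 1.2% on all other chromosomes. Upregulated were 50 of these 1602 genes on 2R and 160 of the 6580 genes on all other chromosomes, against 2.54% of all tested genes. Breakpoints of the deficiency are not given in the sources used here, and loss of 1 gene copy and loss of Tud cannot be told apart for these genes.

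The run included abundant and well-known genes. *RpL29*, a protein of the large ribosomal subunit, was listed at 3695, 3938 and 4460 FPKM in controls and at 1695, 2047 and 1862 FPKM in mutants (log2 fold change −1.11 ± 0.13, adjusted p = 0.00525). This was the most abundant DE gene of the ovary, and its call was lost without control replicate 3 and mutant replicate 1 (adjusted p = 0.0695) and with all 18 libraries in the fit (adjusted p = 0.699). *Xbp1*, a transcription factor of the unfolded protein response, was at 63.2, 65.1 and 69.8 FPKM in controls and at 32.9, 36.3 and 34.2 FPKM in mutants (log2 fold change −0.92). *mago*, an exon junction complex subunit needed to localize *osk* mRNA, was at 84.2, 84.7 and 85.1 FPKM in controls and at 50.4, 52.4 and 48.5 FPKM in mutants (log2 fold change −0.74). The decapping factor gene *LSm1* (log2 fold change −1.14, but adjusted p = 0.0506 with all 18 libraries) and the repair helicase gene *Xpd* (−1.04) also fell, as did *hng1* (−1.34) and *CG30392* (−1.32), the largest falls of the run other than *tud*. The 3 exceptions were *CG15657* (−0.20), *Ugt49B1* (0.045) and *Pu* (−0.25), the GTP cyclohydrolase gene after which the deficiency is named. *Pu* was at 2.8 to 4.33 FPKM in controls and at 2.37 to 3.14 FPKM in mutants, and the groups overlapped. In the female brain, in a joint fit, 26 of the 28 genes had a log2 fold change below 0, with a median of −0.98, and 9 were called, against 0.278% of all genes called lower there. For none of the 28 did the change differ between ovary and brain (lowest adjusted p 0.168).

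**Figure D3:**
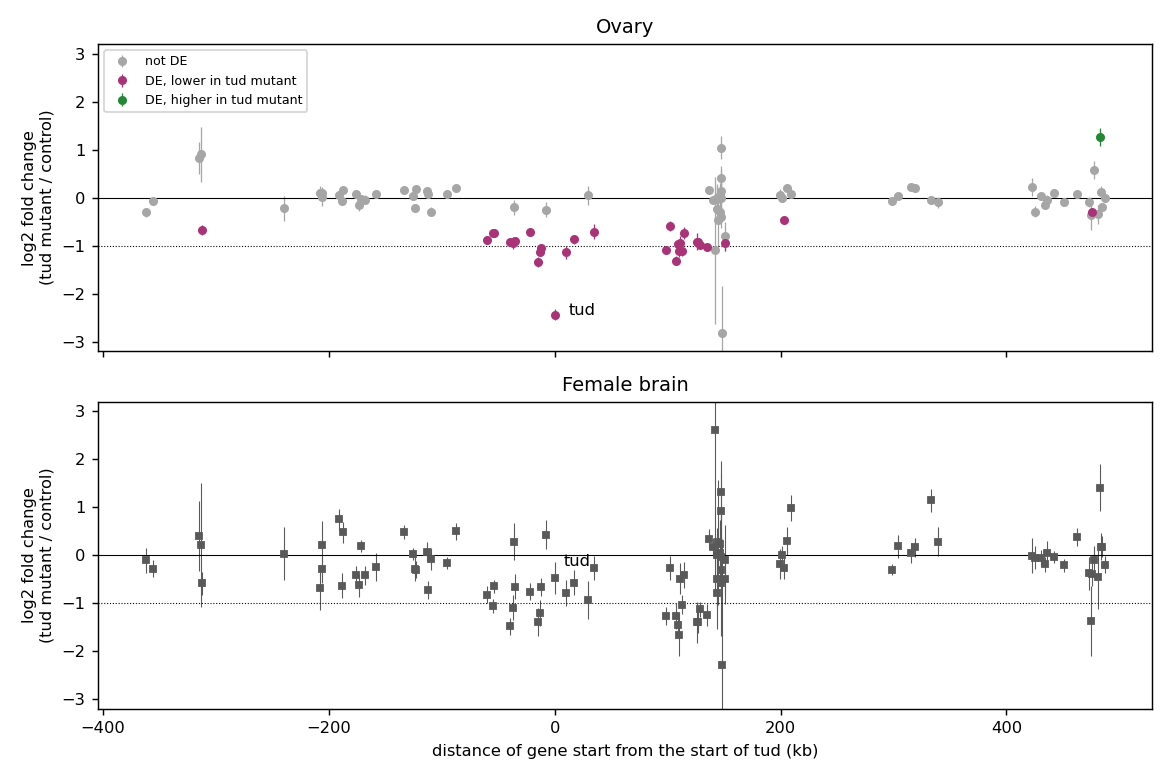
Points are the log2 fold changes (*tud* mutant over control ovary) of tested genes against the distance in kb of their start from the start of *tud*, with downregulated genes coloured. From −60 to 134 kb, 25 of 28 genes other than *tud* are downregulated, with a median of −0.92, and the nearest tested genes on either side, such as *Gar1* at 0.19 and *CG30394* at 0.15, are not DE.

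By chromosome arm, the share of downregulated genes was 2.93% on 2R and 2.1% on 2L, and 0.826 to 1.02% on 3R, 3L and X. The share of upregulated genes was 3.09% on 2L, 2.99% on 2R, and 1.76 to 2.59% on 3R, 3L and X. Among these 5 arms both shares were thus highest on the arms of the second chromosome, for which the genotypes carry different homologues, a description that carries no test. Of the 49 downregulated genes on 2R, 25 besides *tud* lay in the run around it. Beyond 250 kb of *tud* the share on 2R was 1.31%. On the small chromosome 4, 5 of 72 tested genes were upregulated (6.94%) and 1 downregulated (1.39%). Its upregulated share, of few genes, was thus above those of 2L and 2R. Of the 36 tested pseudogenes 4 were upregulated (11.1%), and of the 7348 protein-coding genes 178 were up- (2.42%) and 112 downregulated (1.52%), against 2.54% and 1.55% of all tested genes. Among these pseudogenes, *CR43086* passed the filter only through its level in mutants.

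PIWI proteins and the factors of the piRNA pathway silence transposons in the germline, and several of them bind Tudor domains. Of 34 tested genes of this pathway, 2 were up- and 2 downregulated, against 2.54% and 1.55% of all tested genes, and the median log2 fold change was 0.11, against 0.0023. All mutants lay above all controls in 15 of the 34, against 13.3% of all tested genes. *mael*, a nuage protein that acts in transcriptional silencing, was listed at 29.5, 30.1 and 32.5 FPKM in controls and at 55.2, 48.3 and 50.2 FPKM in mutants (log2 fold change 0.72, adjusted p = 0.00238), a call lost with all 18 libraries in the fit (adjusted p = 0.151). *shu*, a co-chaperone for loading PIWI proteins, was at 29, 26.5 and 30.1 FPKM in controls and at 49.3, 41.1 and 42.9 FPKM in mutants (log2 fold change 0.62, adjusted p = 0.00997), and its call was lost without control replicate 1 or 2 (adjusted p of 0.0545 and 0.063). *moon*, which directs transcription of piRNA clusters, was at 29.2, 26.3 and 27.6 FPKM in controls and at 13.6, 12.1 and 10.3 FPKM in mutants (log2 fold change −1.15, adjusted p = 0.00152). It lies within *Ten-a* and overlaps *lncRNA:CR43960* on the other strand, which rose (log2 fold change 0.64, adjusted p = 0.0432). *Panx*, which links Piwi to silencing of nascent transcripts, was at 31.6, 28 and 28.7 FPKM in controls and at 15.9, 14.2 and 14.8 FPKM in mutants (log2 fold change −0.93), and its call was also lost with all 18 libraries (adjusted p = 0.0804). *Panx* belongs to the run around *tud*. The PIWI genes themselves did not pass the test, with log2 fold changes of 0.045 for *piwi*, 0.22 for *aub* (adjusted p = 0.163) and 0.0089 for *AGO3*. Mutant replicate 1 had the highest median of this list, 0.27 above the control mean, against 0.038 and 0.074 in the other mutants, and without it the median of the list was 0.044. 

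Genes of the germ plasm, the structure that Tud helps to build, were also examined. Of 22 tested genes 1 was DE, against 4.09% of all tested genes, and the median log2 fold change was 0.0086. *bru1*, which encodes Bruno, a translational repressor of *osk* mRNA, was listed at 240, 241 and 236 FPKM in controls and at 454, 386 and 465 FPKM in mutants (log2 fold change 0.86 ± 0.086, adjusted p = 0.00253). The call was lost without control replicate 3 and mutant replicate 1 (adjusted p = 0.0507). *osk* was at 606, 588 and 557 FPKM in controls and at 508, 563 and 644 FPKM in mutants, and the groups overlapped. The transcriptional repressor gene of pole cells, *pgc*, was at 553, 548 and 571 FPKM in controls and at 998, 716 and 755 FPKM in mutants, a log2 difference of 0.55 that did not pass the test (adjusted p = 0.0782). None of 24 genes of maternal axis patterning, 26 cyclins and egg cell cycle regulators, 10 genes of the miRNA and siRNA machinery or 17 genes of germline sex identity was DE, and their medians were between −0.024 and 0.045. 

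**Figure D4:**
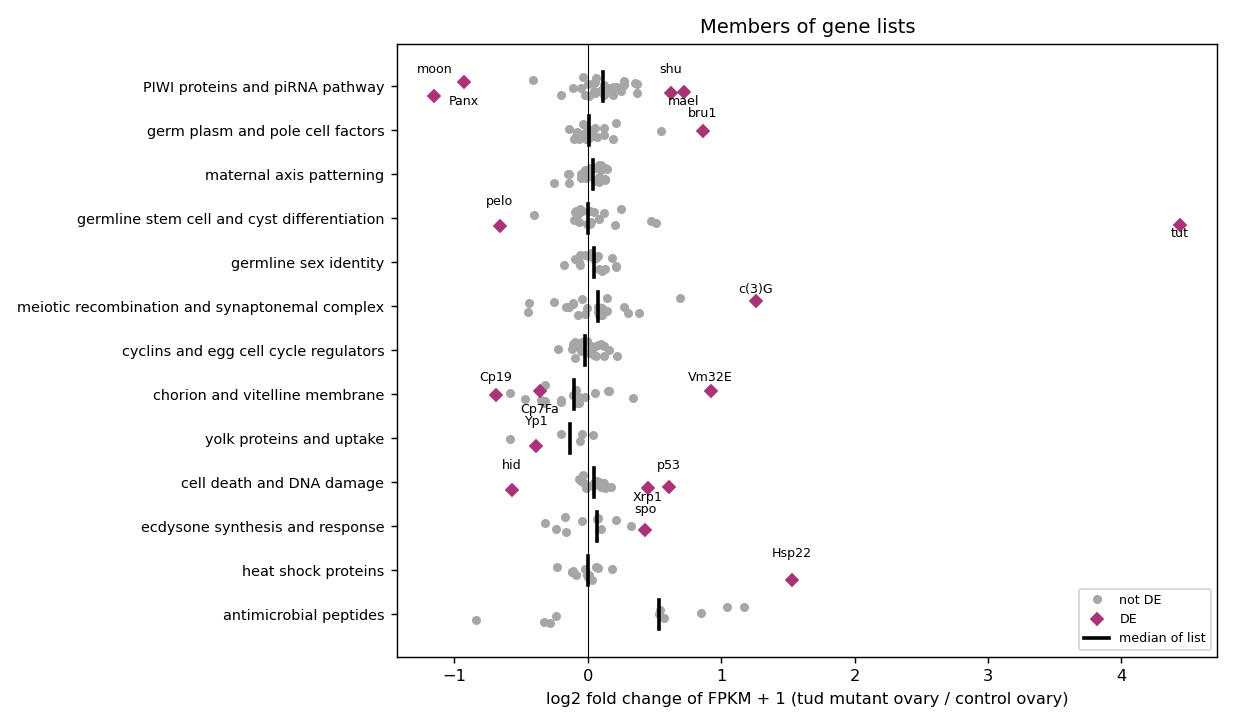
Each point is the log2 fold change of 1 tested gene in 13 lists, with DE genes as coloured diamonds with their names and the median of each list as a bar. All lists but that of antimicrobial peptides (0.53, and −0.26 at a filter of 5 FPKM) have a median between −0.13 and 0.11, and the DE members are single genes such as *tut* at 4.44, *c(3)G* at 1.26 and *moon* at −1.15.

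Among 24 tested genes of meiotic recombination, *c(3)G* was DE, a share near the 4.09% of all tested genes. It encodes the transverse filament protein of the synaptonemal complex, which holds homologous chromosomes together in early oocytes. Its level was 21.6, 21.2 and 21.5 FPKM in controls and 59.8, 45.7 and 54 FPKM in mutants, a log2 fold change of 1.26 ± 0.10 (SE, adjusted p = 0.000782). With all 18 libraries in the fit the call was lost (adjusted p = 0.0873). The recombination genes *mei-P22* (log2 fold change 0.69, adjusted p = 0.0708) and *spn-D* (0.38, adjusted p = 0.0955) did not pass the test. Of 22 genes of germline stem cells and cyst differentiation, *tut* rose and *pelo* fell, against 2.54% and 1.55% of all tested genes. *pelo*, a ribosome rescue factor needed to maintain germline stem cells, was at 43.4, 43.5 and 44.2 FPKM in controls and at 25.5, 26.8 and 30 FPKM in mutants (log2 fold change −0.66, adjusted p = 0.00311). *bam*, the partner of *tut*, is among the germline markers, none of which was DE.

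Most genes that serve spermatogenesis were under the filter. Of 28 structural and spermatid genes in the table, 14 were listed at 0 in all 6 libraries, and *bol*, the single one tested, was at 5.86 to 7.73 FPKM in controls and at 8.9 to 10.9 FPKM in mutants (log2 fold change 0.51, adjusted p = 0.0784). Of 15 listed genes of testis-specific transcription, 2 were tested, and neither passed the test (*mia*, log2 fold change 0.69, adjusted p = 0.0519, and *achi*, −0.28). *Rpt3R*, the single tested testis-type proteasome gene (log2 fold change 0.52), did not pass it either. The repeated *Ste* and *Su(Ste)* loci and the fertility genes of the Y chromosome were all below the filter, with 28 of 40 listed at 0. The call of *mia* was gained under 3 alternatives (no trend, protein-coding genes only and a pseudocount of 0.1) and that of *bol* under 1 (protein-coding genes only). *COX4L*, related to subunit IV of cytochrome c oxidase, was at 0.234 to 0.49 FPKM in controls and at 2.65 to 3.43 FPKM in mutants (log2 fold change 1.62, adjusted p = 0.00239). With *ATPsynepsilonL* it was DE among 37 tested genes of respiratory complexes II to V, against 4.09% of all tested genes. Both genes passed the filter only through their levels in mutants, so that their place among the 37 follows from the rise. None of the 33 tested genes of complex I and none of 70 mitochondrial ribosomal protein genes was DE. Of 83 cytosolic ribosomal protein genes, *RpS10a* rose and *RpL29* fell, against 2.54% and 1.55% of all tested genes. Their median was −0.10, against 0.0023, and it was −0.0016 without control replicate 3 and mutant replicate 1. Relative to the control mean, the median was −0.11, −0.0066 and 0.12 in the controls and −0.19, 0.0086 and −0.13 in the mutants. *RpS10a* was likewise the only DE gene of 21 in the list of duplicated ribosomal protein genes, against 4.09% of all tested genes. It too passed the filter only through its level in mutants.

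Eggshell and yolk genes are expressed in follicle cells late in egg development. Of 22 tested chorion and vitelline membrane genes, 1 rose and 2 fell, against 2.54% and 1.55% of all tested genes. Their median log2 fold change was −0.10, against 0.0023. *Cp19* was listed at 1770, 1936 and 1481 FPKM in controls and at 1055, 1177 and 967 FPKM in mutants (log2 fold change −0.69, adjusted p = 0.0392). *Cp7Fa* fell less (log2 fold change −0.36, adjusted p = 0.0334), and *Vm32E*, a vitelline membrane protein gene, was higher, at 247, 284 and 216 FPKM in controls and 355, 549 and 533 FPKM in mutants (log2 fold change 0.92, adjusted p = 0.0436). *Cp19* and *Cp7Fa* kept their calls when control replicate 3 was left out, *Vm32E* when mutant replicate 1 was left out, and each lost its call without any other single library (adjusted p of 0.0616 to 0.173). Among 6 genes of yolk and its uptake 1 was DE, against 4.09% of all tested genes. This was *Yp1*, which fell from 447, 442 and 444 FPKM to 331, 336 and 348 FPKM (log2 fold change −0.39, adjusted p = 0.0177). Its call was lost without control replicate 1 or 2 or mutant replicate 2 or 3 (adjusted p of 0.0505 to 0.0924). *Yp2* (log2 fold change −0.58, adjusted p = 0.145), *Yp3* (−0.061) and the receptor gene *yl* (−0.20) did not pass the test. The median of the chorion list, relative to the control mean, was −0.29 in mutant replicate 1, the library with the lowest follicle cell sum, against −0.043 and −0.16 in the other mutants. The follicle cell markers include the eggshell genes *Cp36* and *Vm26Aa* and the yolk gene *Yp1*, so this sum is not separate from eggshell and yolk RNA. The part of mutant replicate 1 in these values was not tested beyond leaving it out.

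Stress and cell death genes showed single changes. *Hsp22*, a small mitochondrial heat shock protein, was listed at 4.67, 3.56 and 3.3 FPKM in controls and at 16.4, 10.2 and 12.7 FPKM in mutants (log2 fold change 1.53, adjusted p = 0.00488). *Hsp22* was the only DE gene among 14 of its list, against 4.09% of all tested genes. Its call was lost without control replicate 3 and mutant replicate 1 (adjusted p = 0.0507). None of 10 antimicrobial peptide genes was DE, and the direction of the list was not stable. Its median log2 fold change was 0.53, but −0.26 at a filter of 5 FPKM, −0.017 without a filter and −0.19 without mutant replicate 1, and the list was highest in the pair of libraries that stood apart. None of 3 Turandot genes was DE. Of 18 cell death and DNA damage genes, *p53* and *Xrp1* rose and *hid* fell, against 4.09% of all tested genes, and between 0 and 4 of them were called under the alternatives. *p53* was at 18.6, 19.2 and 20.6 FPKM in controls and at 34.2, 28.2 and 28.5 FPKM in mutants (log2 fold change 0.61, adjusted p = 0.0122), and its call was lost without control replicate 1 or 2 (adjusted p of 0.0702 and 0.0757). *Xrp1*, a transcription factor induced by DNA damage, was at 9.52 to 11 FPKM in controls and at 13.8 to 14.7 FPKM in mutants (log2 fold change 0.45, adjusted p = 0.0189). It kept its call when control replicate 3 was left out and lost it without any other single library (adjusted p of 0.0546 to 0.0903).

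Among metabolic genes, *GstS1*, a glutathione S-transferase, was listed at 70.4, 69.2 and 64.5 FPKM in controls and at 41.1, 31.2 and 35 FPKM in mutants (log2 fold change −0.92, adjusted p = 0.00366). *GstD3* (0.52) and *GstT1* (0.36) rose, and the other 21 tested genes of the family were not DE, against 4.09% DE among all tested genes. *GstT1* lies beside *lncRNA:CR44285*. Both *GstD3* and *GstT1* lost their calls in 5 and 6 of the 6 fits that left out 1 library, and *GstD3* kept it only without control replicate 1. Of 40 cytochrome P450 genes, 3 rose and 2 fell, against 2.54% and 1.55% of all tested genes, and between 2 and 8 of them were called under the alternatives. *Cyp9c1* was at 0.128 to 0.5 FPKM in controls and at 3.23 to 4.35 FPKM in mutants (log2 fold change 1.99, adjusted p = 0.0018), and passed the filter only through its level in mutants. *Cyp6a17*, which fell, passed the filter only through its level in controls. *Cyp6t1* (0.50) lost its call in all 6 such fits. *spo*, which acts in the synthesis of the steroid hormone ecdysone, was at 17.3 to 18.4 FPKM in controls and at 23.6 to 25.9 FPKM in mutants (log2 fold change 0.43, adjusted p = 0.011). Of 11 genes in the ecdysone list *spo* was the only DE gene, against 4.09% of all tested genes. Its call was lost without any 1 control or mutant replicate 3 (adjusted p of 0.0504 to 0.0697). *alphaTub67C*, the maternal alpha-tubulin of the oocyte, was at 379, 374 and 360 FPKM in controls and at 273, 280 and 261 FPKM in mutants (log2 fold change −0.45, adjusted p = 0.0111). It was DE while the other 5 tested tubulins, 4 actins and 5 histone genes were not, against 4.09% DE among all tested genes. Its call was lost without control replicate 1 or 2 or mutant replicate 3 (adjusted p of 0.0646 to 0.0723).

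Short RNAs were examined apart, as their values depend on the size selection. Of 211 small nucleolar RNA genes, 2 rose and 3 fell, against 2.54% and 1.55% of all tested genes. The median of the list relative to the control mean was between −0.19 and 0.35 in single controls and between −0.36 and 0.057 in single mutants. Of 36 microRNA genes *mir-956* was the only DE gene, against 4.09% of all tested genes. It passed the filter only through its level in controls, so that its place among the 36 follows from the fall. The list had a median log2 fold change of −0.75. Relative to the control mean, the median of this list was −0.92, −0.21 and 0.22 in the controls and −1.23, −0.88 and −1.09 in the mutants. The part of the size selection in these values was not tested.

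The ovary change was compared with that in female brains of the same genotypes in a joint limma fit of 12 libraries. Of 10443 genes tested, the change differed for 74 (0.709%), and 26 of the genes DE in the ovary were among them. It differed for 10 of the 15 largest rises and for 2 of the 13 largest falls in this fit. These genes were picked by their ovary change, which enters the difference, so that these counts are a description. *RpS10a* was at 1.68 to 2.42 FPKM in control brains and at 1.46 to 2.47 FPKM in mutant brains, and its change was 6.01 ± 0.21 larger in the ovary (SE, adjusted p = 1.75e-07). *tut* was at 19 to 30 FPKM in control brains and at 19.2 to 33.5 FPKM in mutant brains, so the mutant ovary rose to above the level of this tissue (difference 4.24, adjusted p = 0.00316). *SkpC* was listed at 0 in all 6 brain libraries. The rises of these 3 genes were thus seen in the ovary and not in the female brain.

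Other large changes were shared by both tissues. *lncRNA:CR44701* was at 21.6 to 37.1 FPKM in control brains and at 0 to 1.89 FPKM in mutant brains, and its difference between tissues, −0.58, did not pass the test. *Cyp6a17* fell in both, in the brain from 49.4, 60.6 and 59.3 FPKM to 1.48, 0.328 and 1.06 FPKM. On log2(FPKM + 1) the fall was larger in the brain (adjusted p = 0.0218), a call lost at a pseudocount of 0.1, with the replicate block and without control brain replicate 2 or 3 or mutant brain replicate 3. *snoRNA:Psi18S-525c* was listed at 0 in the 3 control brains and at 438 to 2494 FPKM in the mutant brains. *tud* was at 31.4, 26 and 23.9 FPKM in control brains and at 15.3, 32.3 and 14.1 FPKM in mutant brains. The library labelled *tud* mutant female brain replicate 2 thus lay at the control level of *tud*, although its levels of *w*, 0.205 FPKM, and *Cyp6a17*, 0.328 FPKM, were those of the mutants. The fall of *tud* was larger in the ovary by 1.97 (adjusted p = 0.0335), a call that held without that library but in only 9 of 17 alternatives. It was lost with the replicate block, without any 1 control ovary, and without control brain replicate 2 or 3 or mutant brain replicate 1 or 3.

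**Figure D5:**
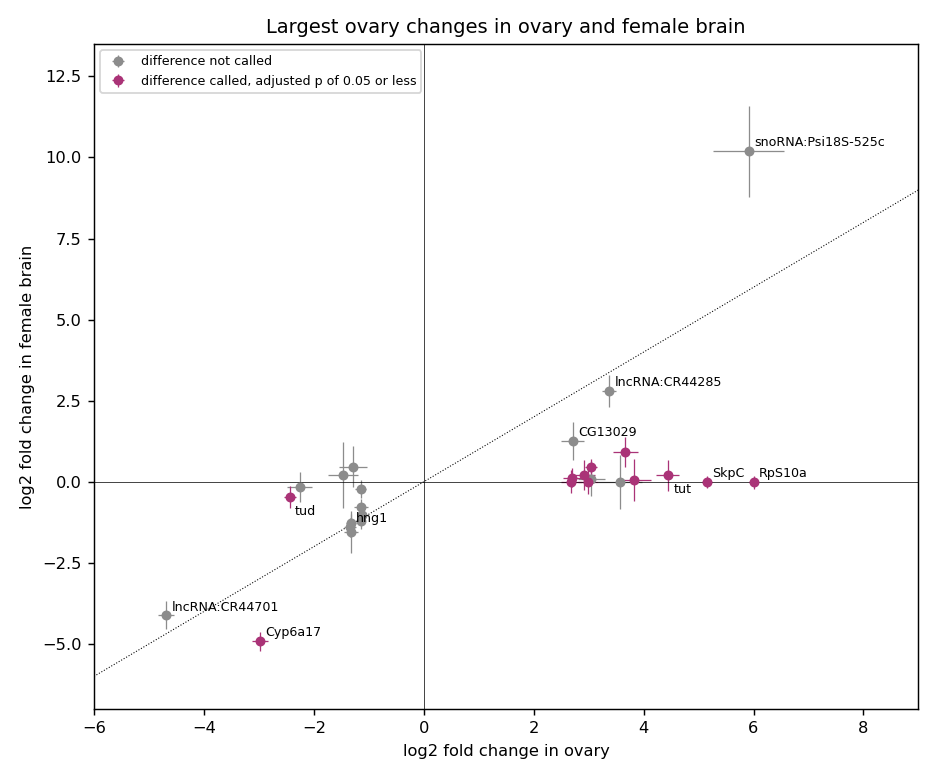
Points are the largest ovary changes that entered the joint fit, with the log2 fold change (*tud* mutant over control) in ovary on the horizontal axis and in female brain on the vertical axis, bars of 1 standard error, and a dotted line of equality. *RpS10a*, *SkpC* and *tut* lie near 0 in the brain, and *lncRNA:CR44701*, *lncRNA:CR44285* and *Cyp6a17* moved in the same direction in both tissues.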

How the data were processed

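RNA-seq libraries of 3 *tud* mutant and 3 control ovaries were compared, and 6 female brain libraries entered 1 joint fit. Reads had been mapped by the authors to dm6 with a BDGP6 annotation, and FPKM per gene were deposited. The submitters' processing notes list TopHat2 2.0.13 and Cuffnorm 2.2.1. Whether values were also scaled between libraries, and whether strand was used in counting, are not given in the sources used here. The files hold no counts, so no counting interval was computed. Depth was estimated from the steps between low values, since 98.0 to 99.0% of low values lay within 0.08 fragments of a whole number (chance 16%).

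Symbols and positions came from Ensembl release 115, which matched 17016 of 17288 identifiers. Values were transformed to log2(FPKM + 1) and genes with a mean of at least 1 FPKM were compared with limma 3.58.1 in R 4.3.3 (moderation with a trend, two-sided, Benjamini-Hochberg adjusted p of 0.05). The joint fit weighted libraries by tissue, at 0.381 for brain and 2.62 for ovary, because brains spread more. The alternative fit of all 18 libraries pooled the spread of brains and ovaries without such weights. The part of this in calls lost there was not tested. An exact permutation test of 3 against 3 libraries cannot go below 0.1 and was not used. The procedure was tested on simulated data.

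Genes were named by rule: genotype markers, the 15 DE genes that rose most and the 15 that fell most without overlap of the groups, up to 4 DE members of each list or else those of highest level, all members of lists with up to 6 tested genes, up to 4 DE genes around *tud*, and paralogues. Genes named beyond this rule, such as *Xbp1*, *mago*, *Xpd*, *piwi*, *aub*, *AGO3*, *pgc*, *mei-P22* and *spn-D*, were chosen after their values were seen. The libraries, lists and rules were chosen with earlier results of these data known, so that no list is independent support. Alternatives were a pseudocount of 0.1, no filter or a filter at 5 FPKM, median-of-ratios scaling, quantile normalization, no trend, protein-coding genes, all 18 libraries, a threshold of 0.01 on the adjusted p, a minimum log2 fold change of 1, a replicate block, and leaving out each library. Leaving out control replicate 3 and mutant replicate 1 together, and the genes within 250 kb of *tud*, was added after seeing the data. Python 3.11.15, numpy 2.4.6, pandas 2.3.3 and matplotlib 3.10.9 were used.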

Additional observations from a re-analysis of the deposited data

Results flagged for a closer look

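For 15 of the named genes the genotype change differed between ovary and female brain by the test of the difference itself (limma, joint fit, 0.709% of all genes). Many of them were named for their ovary change, which also enters the difference. The change was more positive in the ovary for *RpS10a* by 6.01 on the log2 scale (adjusted p = 1.75e-07), for *SkpC* by 5.15 (3.29e-07), for *w* by 3.22 (1.75e-05), for *Dhc98D* by 2.58 (0.000335) and for *CG42329* by 2.57 (0.00292). These 5 differences were called under every alternative that gave them a value, and that of *tut*, 4.24 (0.00316), under every one but the replicate block. Called under fewer alternatives were the differences of *CG16995* (2.98, adjusted p = 0.00816), *CG1894* (2.67, 0.00903), *CG42854* (3.76, 0.039), *CR43086* (2.74, 0.0345), *hog* (2.71, 0.0395) and *Cyp9c1* (2.01, 0.0423). In the brain *CG16995*, *CG1894* and *CG42854* were at most 0.142, 0.0601 and 0.142 FPKM, and *SkpC* was listed at 0. *SkpC* and these genes passed the filter only through their level in mutant ovaries, so that their differences restate the ovary change. *Cyp6a17* had a value of 1.94 (0.0218), since its log2 fold change in the brain was −4.92. The change was more negative in the ovary for *tud*, at −1.97 (0.0335), and for *pelo*, at −0.89 (0.0459). The difference of *CG16995* was called in 11 of 16 alternatives, that of *CG1894* in 12 of 16, of *Cyp6a17* in 12 of 17, of *tud* in 9 of 17, of *CG42854*, *CR43086* and *hog* in 6 of 16 each, of *pelo* in 5 of 17 and of *Cyp9c1* in 4 of 17. With the replicate block the calls of *CG16995*, *CG1894*, *CG42854*, *CR43086*, *Cyp6a17*, *Cyp9c1*, *pelo* and *tud* were lost as well, and each of these and *hog* also lost its call without at least 1 single library. *w* was the single gene of these that was called in opposite directions in the tissues, at 1.63 in the ovary and −1.58 in the brain.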

How the results depend on the processing

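No named value that passed the test changed sign under any alternative. With 1 library left out, 152 to 282 genes were DE (94 to 161 up and 57 to 121 down), and without control replicate 3 and mutant replicate 1 there were 180 (122 up, 58 down). With all 18 libraries in the fit 121 were DE (81 up, 40 down), at an adjusted p of 0.01 there were 145 (91 up, 54 down), and 91 had a log2 fold change of at least 1 (67 up, 24 down), the latter counts being smaller by construction. Replicate numbers were shared by the groups, but deviations of same-numbered libraries correlated at −0.047, 0.031 and −0.107, so that they share only a number. With the replicate number as a block 195 genes were DE (130 up, 65 down), 187 of them among the 338. The other alternatives gave 253 to 418 DE genes. Without a filter, 338 were DE, but 229 of these were the same genes. Without the genes within 250 kb of *tud*, 210 up- and 100 downregulated genes remained. The share of downregulated genes on 2R was 1.71% without the filter. For the 71 genes within 250 kb of *tud* the median was −0.23 and 38% were downregulated. The median was −0.87 within 100 kb (73.7% down), −0.10 within 500 kb, −0.047 within 1000 kb (17% down), −0.078 without the filter (24.5% down) and −0.26 after quantile normalization. The number of genes whose change differed between ovary and female brain was 38 at a filter of 5 FPKM, 134 after quantile normalization, 23 with the replicate block and 30 to 198 with 1 library left out. Except where given above, the cause of these differences was not tested. Of 59 named DE genes, 29 kept their call in every alternative and 30 lost it in at least 1, of which 24 with all 18 libraries and 13 with the replicate block. Whichever single library was left out, 41 kept it. With 3 libraries a group, and a median standard error of 0.0868, small changes could not be called.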

Other observations

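Some genes outside the comparisons above, chosen after their values were seen, had large and even changes. *Tina-1* was listed at 13.4, 11.4 and 13.6 FPKM in control ovaries and at 72.7, 70.6 and 74.8 FPKM in mutant ovaries (limma log2 fold change 2.42, standard error 0.077, adjusted p = 2.45e-05). *Rcd-1r*, related to a subunit of the CCR4-NOT deadenylase, was at 0.112 to 0.281 FPKM in controls and at 5.48, 6.11 and 5.75 FPKM in mutants (log2 fold change 2.50, adjusted p = 0.000202). The most abundant noncoding RNA that rose was *lncRNA:CR43264*, at 185, 112 and 152 FPKM in controls and at 436, 385 and 449 FPKM in mutants (log2 fold change 1.52, adjusted p = 0.0047). In all 3 the groups were widely separated.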
